A study of Mus musculus with 6 samples.

Results

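The nuclear genes for the subunits of the mitochondrial respiratory chain and the ATP synthase were examined in sorted cells of the mouse forelimb autopod, the plate of the limb bud in which the digits form. The genes were taken by symbol from the array annotation, which gave the Nduf genes of complex I, the 4 Sdh genes of complex II, the Uqcr genes of complex III, the Cox4 to Cox8 genes of complex IV and the Atp5 genes of complex V. This rule took 129 non-control spots, that is 120 probes for 85 genes, of 21245 genes on the array with a RefSeq name. It used names and no measured value. The samples were Sox9-EGFP positive cells and Sox9-EGFP negative cells, sorted by flow cytometry from embryos of stage E11.5 that carried EGFP knocked in at Sox9 in the C57BL/6 strain. Sox9 encodes the transcription factor that begins cartilage formation, and EGFP reports its expression. Both groups came from animals with the same knock-in allele, and no animals without it were compared. Each group had 3 samples, each pooled from about 10 autopods and hybridised alone to a 1-colour Agilent array. All cells were described as mesenchymal, and how the gates were set is not stated in what was read. Nothing given says that the samples came from separate litters or sorts, so the p-values measure the spread between these samples, which may be technical.

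Complexes I and II pass electrons from NADH and succinate to ubiquinone, complex III passes them to cytochrome c, and complex IV passes them to oxygen. Complexes I, III and IV pump protons across the inner mitochondrial membrane, and complex V, the ATP synthase, uses their return to make ATP. Complexes I, III, IV and V also hold subunits encoded in the mitochondrial genome, and some complex IV and complex V subunits have paralogues used in particular tissues. Growth-plate cartilage has no blood vessels, and mature chondrocytes are known to make much of their ATP by glycolysis. No measure of respiration, protein or mitochondrial mass was part of these data. The RNA came from many cells at once, so fewer cells of a type and less RNA per cell cannot be told apart.

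Levels are given as log2 of the processed signal over the 75th percentile of the same array, and a difference is the mean level of positive cells minus that of negative cells. A gene was represented by its brightest probe, and a probe was kept if 1 group or both had it well above background on each of their 3 arrays. Of the 85 genes, 81 were measured by this rule, 80 of them above background on all 6 arrays. Cox6a2, Cox7b2, Cox8b and Cox8c, the muscle or testis forms of complex IV subunits, did not rise well above background on a single array. By current names 3 of the measured genes are not subunits, namely Emc8 (Cox4nb on the array), Dmac2l (Atp5s) and Dmac2 (Atp5sl). A gene is called higher or lower when its adjusted p in limma, over all 13197 tested genes, is under 0.05. The sort was visible in the RNA: Sox9 was higher in positive cells by 4.37 ± 0.19 (SE) on the log2 scale. Of 6 measured chondrogenic markers, Sox9, Col2a1 and Col9a1 were called higher, and Sox5 and Acan were not called. Sox6 was above background on the 3 positive arrays and on no negative array. It passed the filter through the positive group alone, and its call is not used. Of 6 limb mesenchyme markers, all measured, 3 were lower (Twist1, Hoxd13 and Msx1) and Tbx5 was higher. Markers of other cells also moved with the sort. The 4 measured muscle precursor markers (Pax3, Myod1, Myog and Lbx1) and the platelet gene Pf4 were well above background on all 3 negative arrays, and on none of the positive arrays except Lbx1 on 1. They therefore passed the filter through the negative group alone, and their size of difference and their calls are not used. The summed signal of the 4 muscle markers, in multiples of the array's 75th percentile, was measured as 0.0688 to 0.155 in positive cells, mostly from spots below background, and as 0.542 to 1.33 in negative cells. Pax7 and Myf5 were not above background on any array. None of the 4 measured erythroid genes was called (1 lower at an unadjusted p under 0.05), with a summed signal of 1.06 to 4.89 in positive and 1.68 to 42.9 in negative cells. Of 4 measured surface ectoderm markers, the keratins Krt8 and Krt18 were higher in positive cells. Krt14 and Epcam were not called, with log2 differences of −0.03 and −0.43, and Cdh1 was not above background on any array. The neural crest gene Sox10 was above background on 3 positive arrays and 1 negative array. Of 2 measured endothelial genes and 1 macrophage gene none was called (limma; 0 at an unadjusted p under 0.05). The part of these cells in the differences below was not tested. On the array of positive replicate 1 the 75th percentile of the processed signal was 126, whereas it was 385 to 478 on the other 5 arrays.

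Transcripts of the respiratory chain tended to lower levels in the Sox9-EGFP positive cells. Of the 81 measured genes, 32 (39.5%) were called lower and 2 were called higher, and 47 did not pass the test. Among all tested genes 24.4% were called lower and 10.6% higher. The differences of 78 of the 81 genes lay below 0, and their median was −0.40 on the log2 scale, against −0.18 for all tested genes. In 59 genes the 3 positive arrays all lay below the 3 negative arrays, which held for 36.3% of all tested genes, and in 3 genes they all lay above, which held for 15%. The genes are bright, and 73 of the 81 were among the 3299 tested genes with the highest mean signal. Of these 3299 genes, 39.7% were called lower and 3.15% higher, with a median difference of −0.34. The share of respiratory chain genes called lower was thus close to that of the 3299 brightest genes, and their median was 0.06 further below 0. The 2 sets are not matched in signal. On the negative arrays the median level was 5.93, 5.94 and 5.95 for the 81 genes, against 4.68, 4.59 and 4.73 for the 3299. The 0.06 can therefore not be read as a difference from genes of similar signal.

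**Figure D1:**
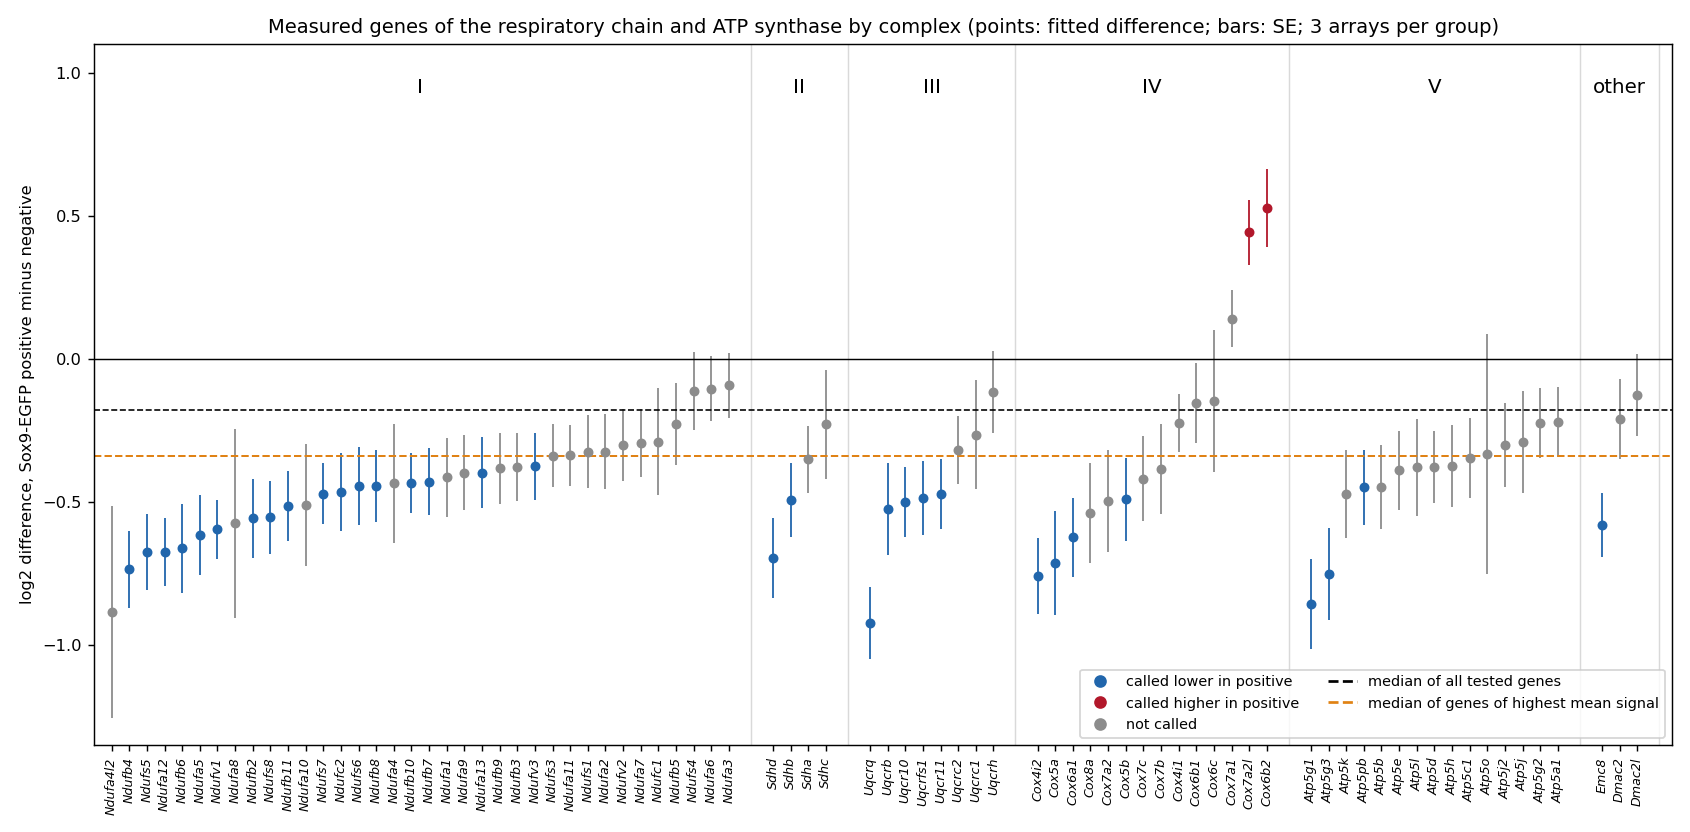
Log2 difference, Sox9-EGFP positive minus Sox9-EGFP negative cells, of 80 of the 81 measured genes, grouped by complex (I to V; other, the 3 genes that are not subunits) and ordered within it. Points are fitted differences and bars their SE (3 arrays per group), blue is called lower, red called higher and grey not called; dashed lines mark the medians of all tested genes (−0.18) and of the 3299 brightest genes (−0.34), and 77 of the 80 points lie below 0.

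How many genes passed the test depended on how the arrays were scaled, and the median of all genes itself lay at −0.18 under the 75th percentile scaling. The median of the 81 genes lay below 0 under each of the 5 scalings run. Relative to all tested genes it was −0.22 under the 75th percentile and −0.22 with arrays centred on their median, −0.02 after quantile normalization, −0.06 after normexp background correction with quantile normalization, and −0.07 in the authors' quantile-normalized log2 values. Relative to the 3299 brightest genes it was −0.06 under both the 75th percentile and the median centring, −0.05 after quantile normalization, −0.06 with normexp and −0.05 in the authors' values. After quantile normalization 10 genes, among them Ndufa4l2, were lower and 2 higher, against 13.3% and 10.7% of all genes. In the authors' values 12 were lower and 2 higher, against 14.5% and 11.7%. With median centring 12 were lower and 3 higher, against 17.0% and 14%, and with normexp 9 were lower and 2 higher, against 14.3% and 12.3%. The share of lower genes among all called genes moved as well, to 55.4% after quantile normalization, 53.7% with normexp, 54.7% with median centring and 55.4% in the authors' values and was 69.7% under the 75th percentile. The signs of single genes were less stable than the median, with 57 of 81 differences below 0 after quantile normalization and 60 of 81 in the authors' values.

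**Figure D2:**
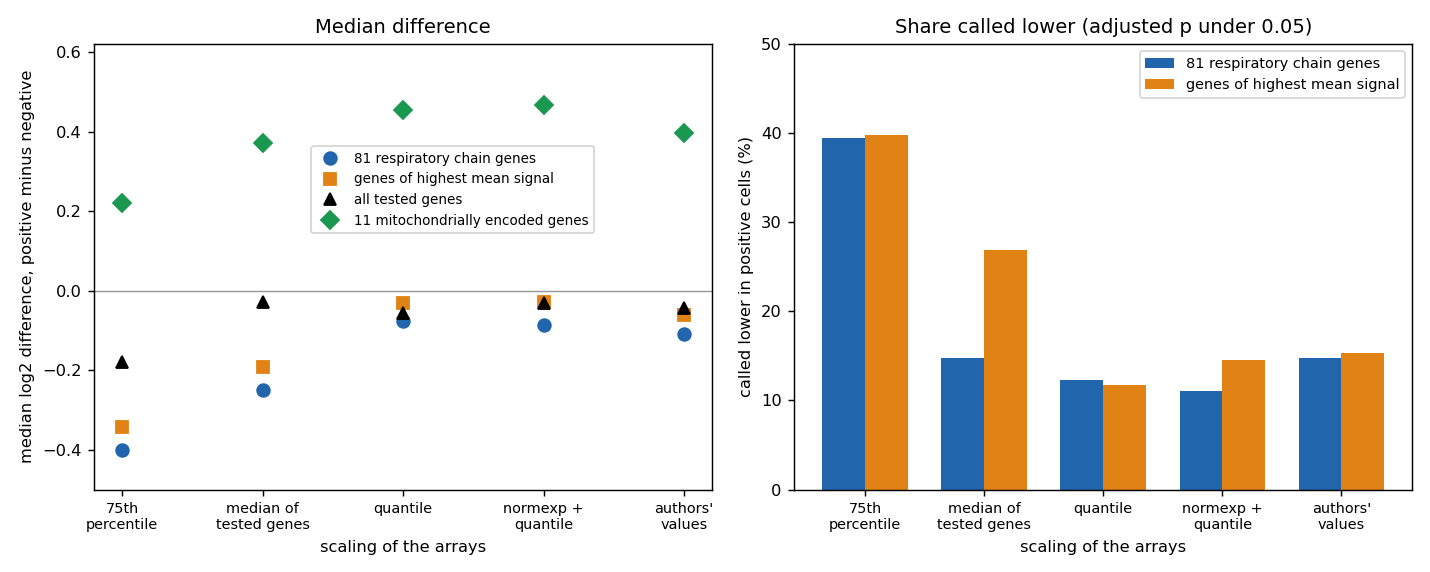
Left, median log2 difference (positive minus negative cells) of the 81 respiratory chain genes, the 3299 brightest genes, all tested genes and 11 mitochondrially encoded genes under 5 scalings of the arrays; right, percent of the 81 genes and of the 3299 brightest genes called lower in positive cells. The respiratory chain genes lie below 0 under every scaling shown, at −0.40 with the 75th percentile and −0.08 after quantile normalization, and their share called lower is 39.5% and 12.3% under these 2 scalings, beside 39.7% and 11.8% of the brightest genes.

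The number of calls also rested on single arrays. Without positive replicate 1, whose signal was the dimmest, 48 genes were called lower and 2 higher, against 26.8% and 12.4% of all genes. Without positive replicate 2, 18 were lower and 0 higher (18.4% and 8.68% of all genes), and without positive replicate 3, 12 and 0 (14.7% and 7.37%). Without negative replicate 1, 8 were lower and 1 higher (12.3% and 6.99%), without negative replicate 2, 23 and 0 (21.0% and 8.87%), and without negative replicate 3, 8 and 0 (12% and 6.78%). In each of these fits 2 genes were higher at an unadjusted p under 0.05 in limma. The median difference lay between −0.48 and −0.33 in these 6 fits. The arrays lay on 3 slides with 1 positive and 1 negative array apiece, and the median difference within slides was −0.22, −0.40 and −0.59, where the 3299 brightest genes gave −0.23, −0.37 and −0.47. On all 3 slides 67 of the 81 genes were lower in positive cells, as were 46.8% of all tested genes. With slide as a block 33 genes, among them Ndufa4l2, were called lower (27.3% of all genes) and 2 higher (12.5%). Of the 34 called genes, 9 were called in the same direction under all 4 other scalings, 7 in all 6 fits without 1 array, and 5 in both: Uqcrq, Atp5g1, Cox4i2, Ndufa12 and Ndufs5. Another 17 were called under none of the other scalings.

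The counts by complex are read against the 24.4% of all tested genes and the 39.7% of the 3299 brightest genes called lower. The shares called lower were 45.9% in complex I, 50% in complex II, 62.5% in complex III, 28.6% in complex IV and 20% in complex V, and 35 of 37, 4 of 4, 8 of 8, 11 of 14 and 15 of 15 of their genes were among the brightest. After quantile normalization the counts of lower genes in complexes I to V, with Ndufa4l2 among those of complex I, were 3, 0, 1, 3 and 2. Without negative replicate 3 they were 4, 0, 1, 1 and 1, without negative replicate 1 they were 4, 1, 1, 1 and 1, and without positive replicate 1 they were 22, 2, 5, 8 and 10. In these fits, in the same order, 13.3%, 12%, 12.3% and 26.8% of all tested genes were called lower. No complex is set above another by these counts.

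In complex I, the NADH dehydrogenase, 17 of 37 measured genes were called lower and none higher (limma; 0 higher at an unadjusted p under 0.05), with a median difference of −0.43. Of the 7 core subunits encoded in the nucleus, which carry the flavin, the iron-sulphur clusters and the quinone site, 3 were lower (Ndufv1, Ndufs8 and Ndufs7), and their median of −0.34 turned to 0.02 after quantile normalization and with normexp. The other 30 genes were counted as accessory subunits by their names, with Ndufa4 and Ndufa4l2 among them. Of these 30 genes 14 were lower, with a median of −0.43 that was −0.10 after quantile normalization. Ndufv1, which binds FMN and takes the electrons from NADH, had log2 levels of 5.50, 5.57 and 5.48 in Sox9-EGFP positive cells, against 6.17, 6.02 and 6.16 in Sox9-EGFP negative cells. All 3 positive arrays lay below all 3 negative arrays. The log2 difference of Ndufv1 was −0.60 ± 0.10 (SE, n = 3 per group), 1.51-fold lower in positive cells, with an adjusted p of 0.00758 in limma and of 0.0124 to 0.0425 when 1 array was left out. After quantile normalization its log2 difference was −0.24 with an adjusted p of 0.164, so that call was lost.

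The accessory subunits with the smallest adjusted p were Ndufa12, Ndufb4, Ndufs5 and Ndufa5. Ndufa12, a subunit of the matrix arm, stood at log2 levels of 5.92, 5.93 and 5.65 in positive cells, against 6.50, 6.49 and 6.54 in negative cells, without overlap. Its log2 difference was −0.68 ± 0.12 (limma adjusted p = 0.00770; 0.00935 to 0.0375 without 1 array), and −0.33 after quantile normalization (adjusted p = 0.0484). Ndufb4 belongs to the membrane arm, and its log2 levels were 5.28, 5.23 and 4.93 in positive cells and 5.78, 5.99 and 5.88 in negative cells. The log2 difference of Ndufb4 was −0.74 ± 0.14 (adjusted p = 0.00902), and its adjusted p after quantile normalization was 0.0520. Both groups of arrays were again separate. For Ndufs5, an accessory subunit on the intermembrane side, the log2 levels were 5.92, 5.77 and 5.55 in positive and 6.34, 6.41 and 6.51 in negative cells, a difference of −0.68 ± 0.13 (adjusted p = 0.0112). Ndufa5, next to the quinone module, fell by 0.62 on the log2 scale (adjusted p = 0.0177; 0.00830 to 0.0703 without 1 array). The other 10 called accessory genes had log2 differences between −0.66 (Ndufb6) and −0.38 (Ndufv3). Ndufa4, which was first assigned to complex I and later described in complex IV, had a log2 difference of −0.44 ± 0.21 (adjusted p = 0.151). Ndufa4l2, its paralogue and a known target of hypoxia-inducible factor, passed the filter through the negative group alone. Its log2 levels were −4.43, −5.23 and −3.94 in positive cells, well above background on 1 of 3 arrays, and −3.16, −3.81 and −3.97 in negative cells, above background on all 3. The groups overlapped, it was not called (adjusted p = 0.111), and its difference rests partly on spots below background.

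Complex II, succinate dehydrogenase, also belongs to the tricarboxylic acid cycle and has no subunit encoded in the mitochondrial genome. Of its 4 subunits, all measured, Sdhd and Sdhb were called lower and none higher (0 at an unadjusted p under 0.05), with a median difference of −0.42 and of −0.08 after quantile normalization. Sdhd, a membrane anchor at the quinone site, gave log2 levels of 4.61, 4.99 and 4.64 in Sox9-EGFP positive cells, against 5.42, 5.37 and 5.53 in Sox9-EGFP negative cells. No positive array reached the lowest negative one. The log2 difference was −0.70 ± 0.14, 1.62-fold lower (limma adjusted p = 0.0122; 0.0126 to 0.0531 without 1 array). Sdhb, the iron-sulphur subunit, had log2 levels of 6.36, 6.35 and 6.04 in positive and 6.78, 6.67 and 6.78 in negative cells, a difference of −0.50 ± 0.13 (adjusted p = 0.0282; 0.0255 to 0.101 without 1 array). Sdha, the flavoprotein that oxidises succinate, had log2 levels of 4.41, 4.28 and 4.31 in positive cells and 4.70, 4.54 and 4.82 in negative cells. Its groups did not overlap, and its difference of −0.35 ± 0.12 did not pass the test (adjusted p = 0.0591). For Sdhc, the other membrane anchor, the log2 levels of 3.53, 4.12 and 3.90 in positive cells overlapped with 4.23, 3.84 and 4.17 in negative cells, and the difference was −0.23 ± 0.19 (adjusted p = 0.391). Neither Sdhd nor Sdhb was called after quantile normalization (adjusted p = 0.143 and 0.247), where the difference of Sdhc was 0.09.

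In complex III, which oxidises ubiquinol and reduces cytochrome c, 5 of 8 measured genes were called lower and none higher (0 at an unadjusted p under 0.05). Its median difference was −0.48, and −0.14 after quantile normalization. Uqcrq is a small subunit that contacts the ubiquinone site. Its log2 levels were 5.95, 5.97 and 5.68 in Sox9-EGFP positive cells, against 6.70, 6.79 and 6.87 in Sox9-EGFP negative cells. Every positive array lay below every negative array. The log2 difference of Uqcrq was −0.92 ± 0.13, 1.90-fold lower (limma adjusted p = 0.00350; 0.00492 to 0.0203 without 1 array), with −0.59 after quantile normalization (adjusted p = 0.0106) and −0.65 in the authors' values (adjusted p = 0.00453). Uqcrfs1, the Rieske iron-sulphur protein, had log2 levels of 4.36, 4.46 and 4.13 in positive and 4.86, 4.69 and 4.86 in negative cells, a difference of −0.49 ± 0.13 (adjusted p = 0.0297). The small subunits Uqcrb, Uqcr10 and Uqcr11 fell by 0.52, 0.50 and 0.47 on the log2 scale, with adjusted p of 0.0465, 0.0228 and 0.0280. Of the 5 called genes of this complex, Uqcrq alone was called under any other scaling. The core proteins Uqcrc1 and Uqcrc2, which face the matrix, did not pass. Uqcrh, the hinge protein near cytochrome c1, had the smallest difference of complex III at −0.12 ± 0.14 (adjusted p = 0.564), and 0.16 after quantile normalization.

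Complex IV, cytochrome c oxidase, was with all 6 arrays the one complex with called genes in both directions. Of 18 genes for its subunits or their paralogues 14 were measured. Of these, 4 were called lower, 2 (14.3%) were called higher and 8 did not pass. Their median difference was −0.40, and −0.05 after quantile normalization. Of all tested genes 10.6% were called higher. Higher calls in complex IV rested on single arrays. They numbered 2 when positive replicate 1 was dropped and 1 when negative replicate 1 was dropped. Dropping any other array gave 0, where 6.78% to 8.87% of all tested genes were higher. In each such fit 2 of the 81 genes were higher at an unadjusted p under 0.05 in limma. Cox6a1, the widely expressed form of subunit 6A, had log2 levels of 8.2, 8.03 and 7.77 in Sox9-EGFP positive cells, against 8.65, 8.63 and 8.59 in Sox9-EGFP negative cells. The log2 difference was −0.62 ± 0.14 (limma adjusted p = 0.0167; 0.00882 to 0.0666 without 1 array). Cox5a, a subunit on the matrix side, had log2 levels of 7.09, 6.66 and 6.46 in positive cells and 7.48, 7.33 and 7.54 in negative cells, a difference of −0.72 ± 0.18 (adjusted p = 0.0261). Both genes were also called after quantile normalization (adjusted p = 0.0205 and 0.0448). Cox5b fell by 0.49 on the log2 scale (adjusted p = 0.0403), was called under no other scaling, and rests on a probe that the files place on another chromosome than the gene. Emc8, a subunit of the endoplasmic reticulum membrane complex rather than of complex IV, had a log2 difference of −0.58 ± 0.11 (adjusted p = 0.0103). Cox7b, Cox8a and Cox7c, none of which passed, had log2 differences of −0.39 ± 0.16, −0.54 ± 0.17 and −0.42 ± 0.15 (adjusted p = 0.103, 0.0552 and 0.0705), and Cox8a was called in the authors' values (adjusted p = 0.0207). Cox6c overlapped between the groups, with a log2 difference of −0.15 ± 0.25 (adjusted p = 0.684).

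Several subunits of complexes IV and V have paralogues that replace each other, and their probes were compared within arrays. Stretches of the probes are shown because each gene entered these comparisons through its brightest probe, a 60-base oligonucleotide. The probe of Cox7a1, which was also compared, is not shown. Bases 16 to 45 are printed 5′ to 3′, with the position of the whole probe on the mm9 build as the files give it. Whether a probe lies in an untranslated region was not determined, as no annotation of that build was used here.
Atp5g1 probe, chr11:95934315-95934374, minus strand: tggagtctactgagctttaccattaaacaa
Atp5g2 probe, chr15:102493359-102493418, minus strand: ctcgtctgccctgtatgttccttttcctgt
Atp5g3 probe, chr2:73746519-73746578, minus strand: ctggtgtcatggaaatatatgttatttcca
Cox4i1 probe, chr8:123197924-123197983, plus strand: atgaaggccaaccccattcagggcttctcc
Cox4i2 probe, chr2:152590711-152590770, plus strand: actcccttctccaataaaagcagcctgctt
Cox6b1 probe, chr7:31409575-31411071, minus strand: tgaagacatcaagactaaaatcaagaacta
Cox6b2 probe, chr7:4703488-4703547, minus strand: aaaatatgaccttgcacttgagcgctgctc
Cox7a2 probe, chr9:79603215-79603274, minus strand: tttattgatgtgtattaactgctgccaata
Cox7a2l probe, chr17:83901272-83901331, minus strand: tggctttacgttatgattgaccggactgcg
The longest run of bases shared by the probes of a compared pair was 5 to 7 bases.

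Cox7a2l and Cox6b2 were the 2 genes called higher. Cox7a2l encodes SCAF1, which joins complexes III and IV into supercomplexes, and C57BL/6 mice carry a shortened form of it. Its log2 levels were 6.71, 6.47 and 6.47 in Sox9-EGFP positive cells, against 6.08, 6.10 and 6.15 in Sox9-EGFP negative cells, so every positive array lay above every negative array. The log2 difference was 0.44 ± 0.11, 1.36-fold higher (limma adjusted p = 0.0274; 0.0392 to 0.102 without 1 array). It was 0.77 after quantile normalization (adjusted p = 0.00440) and 0.73 in the authors' values (adjusted p = 0.00282). The 2 other Cox7a2l probes gave log2 differences of 0.42 ± 0.13 and 0.50 ± 0.13, also positive. Cox7a2, the related liver-type structural subunit, did not pass the test, with log2 levels of 5.84, 5.48 and 5.18 in positive and 6.05, 5.93 and 6.01 in negative cells and a difference of −0.50 ± 0.18 (adjusted p = 0.0750). The log2 ratio of Cox7a2l to Cox7a2 was higher in positive cells by 0.94, and by 0.93 after quantile normalization. Cox7a1, the heart and skeletal muscle form, had log2 levels of 0.15, 0.30 and 0.25 in positive and 0.09, 0.06 and 0.13 in negative cells. They did not overlap, and the difference of 0.14 ± 0.10 did not pass (adjusted p = 0.323), while of the 4 other scalings it passed with median centring alone (adjusted p = 0.0470). The log2 ratio of Cox7a1 to Cox7a2 was higher by 0.64.

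Cox6b2, known in testis, had log2 levels of 1.18, 1.35 and 1.38 in positive cells and 0.98, 0.73 and 0.62 in negative cells, without overlap. Its log2 difference was 0.53 ± 0.14, 1.44-fold higher (limma adjusted p = 0.0273; 0.0233 to 0.0952 without 1 array), and it was called under all 4 other scalings. Cox6b1, the widely expressed form, overlapped between the groups and had a log2 difference of −0.16 ± 0.14 (adjusted p = 0.432), with 0.15 after quantile normalization. The log2 ratio of Cox6b2 to Cox6b1 was higher in positive cells by 0.68. Cox4i2, a form of subunit 4 that is induced by low oxygen in some cells, moved the opposite way. Its log2 levels were −0.76, −1.0 and −0.76 in Sox9-EGFP positive cells, against 0.06, −0.05 and −0.24 in Sox9-EGFP negative cells. All positive arrays lay below all negative arrays. The difference was −0.76 ± 0.13, 1.69-fold lower (adjusted p = 0.00766; 0.0102 to 0.0379 without 1 array), and −0.83 after quantile normalization (adjusted p = 0.00505). Cox4i1, the common form, had log2 levels of 7.05, 7.12 and 7.03 in positive and 7.34, 7.21 and 7.33 in negative cells, a difference of −0.22 ± 0.10 that did not pass (adjusted p = 0.136) and was 0.08 after quantile normalization. The log2 ratio of Cox4i2 to Cox4i1 differed, positive minus negative, by −0.53.

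In complex V, the ATP synthase, 3 of 15 measured genes were called lower and none higher (limma; 0 higher at an unadjusted p under 0.05), with a median difference of −0.38 and of −0.06 after quantile normalization. The called genes were 2 of the 3 genes of the c-ring, the rotor in the membrane, and 1 of the 4 of the peripheral stalk. None of the 5 genes of the catalytic head and central stalk was called, although 4 had an unadjusted p under 0.05, all lower. The 3 c-ring genes Atp5g1, Atp5g2 and Atp5g3 encode the same mature protein behind different import sequences. Atp5g1 had log2 levels of 6.06, 5.68 and 5.52 in Sox9-EGFP positive cells, against 6.61, 6.60 and 6.62 in Sox9-EGFP negative cells, with the negative arrays close together. The log2 difference was −0.86 ± 0.16, 1.81-fold lower (adjusted p = 0.00896; 0.00234 to 0.0399 without 1 array). Atp5g3 had log2 levels of 7.31, 6.95 and 6.75 in positive cells and 7.74, 7.74 and 7.79 in negative cells, a difference of −0.75 ± 0.16 (adjusted p = 0.0148; 0.00374 to 0.0591 without 1 array). Neither gene overlapped between the groups, and both were called after quantile normalization (adjusted p = 0.0190 and 0.0148). Atp5g2 had log2 levels of 8.03, 8.08 and 7.80 in positive and 8.28, 8.12 and 8.19 in negative cells, without overlap, and its difference of −0.22 ± 0.12 did not pass (adjusted p = 0.20). Within arrays, the log2 ratio of Atp5g1 to Atp5g2 differed by −0.63 and that of Atp5g3 to Atp5g2 by −0.53, positive minus negative, while that of Atp5g1 to Atp5g3 differed by −0.10. Atp5pb, a stalk subunit, fell by 0.45 on the log2 scale (adjusted p = 0.0393) and was called under no other scaling. Atp5a1 and Atp5b, the alpha and beta subunits of the catalytic head, had log2 differences of −0.22 ± 0.12 and −0.45 ± 0.15 (adjusted p = 0.209 and 0.0560), the first being the smallest of the complex. The exact permutation p of each of the 7 paralogue ratios was 0.1, the smallest that 3 against 3 arrays can give, and was also 0.1 after Benjamini-Hochberg adjustment over the 7.

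**Figure D3:**
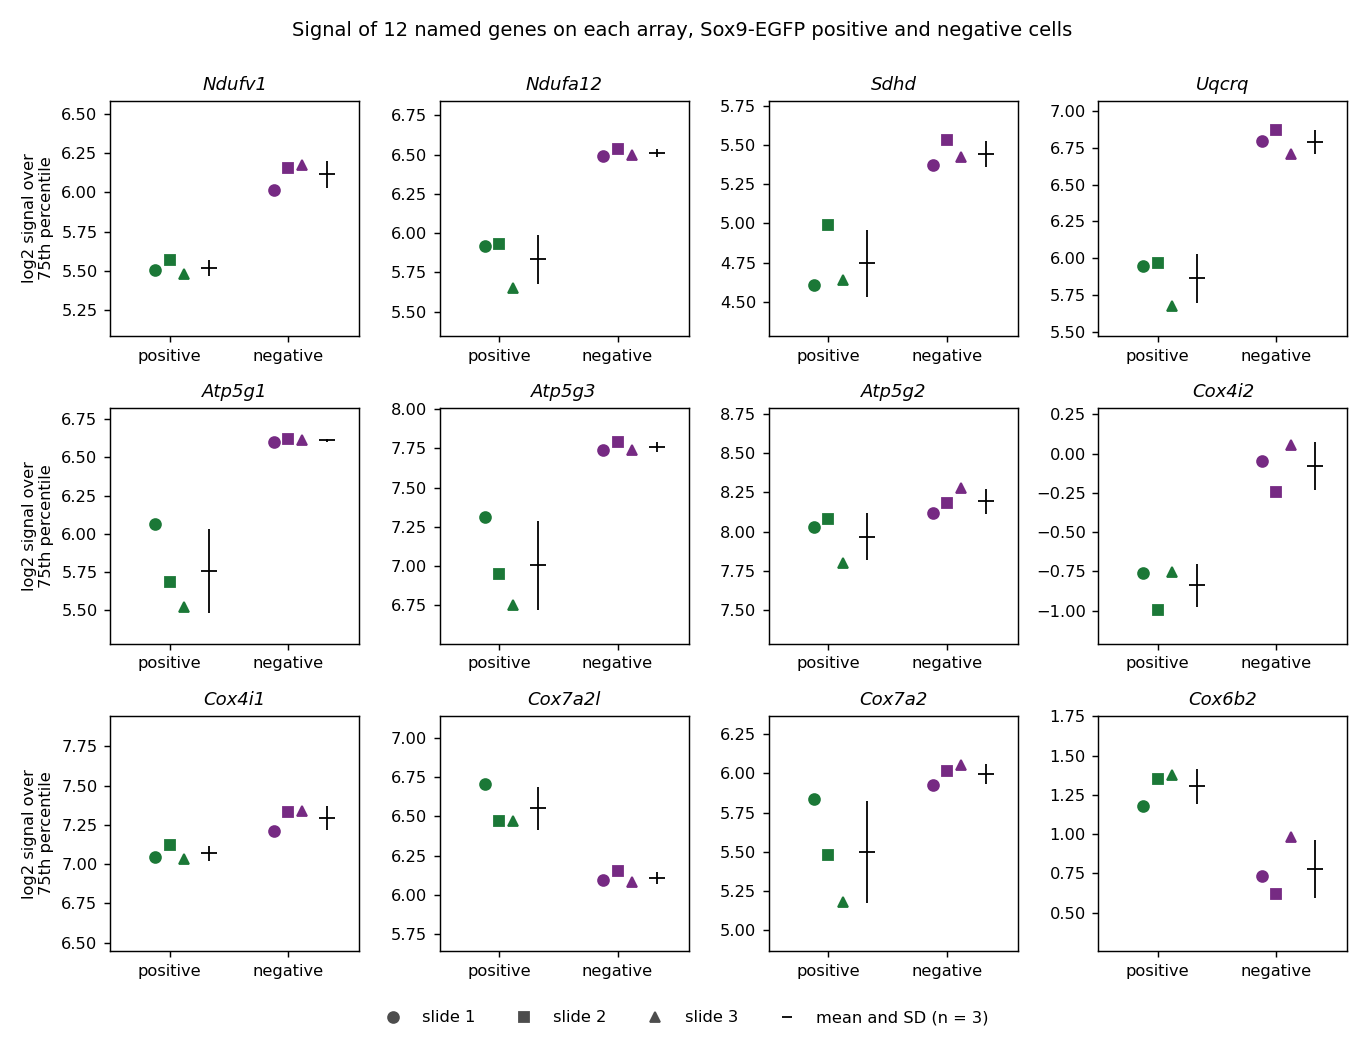
Log2 signal over the array's 75th percentile (y axis) of 12 named genes on each of the 3 positive (green) and 3 negative arrays (purple), with the slide as the symbol and the group mean and SD as a bar; each panel has its own y range. In 10 of the 12 panels the groups do not overlap with the positive arrays lower, and in the panels of Cox7a2l and Cox6b2 they do not overlap with the positive arrays higher.

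The mitochondrial genome encodes 13 further subunits of complexes I, III, IV and V, of which 11 were measured. None was called in either direction (limma; 1 higher and 1 lower at an unadjusted p under 0.05), and 10 of 11 differences lay above 0, with a median of 0.22. COX1, a catalytic subunit of complex IV, had log2 levels of 9.44, 8.99 and 8.87 in Sox9-EGFP positive cells, against 8.94, 9.01 and 8.74 in Sox9-EGFP negative cells. Positive replicate 1 stood apart, and the other positive arrays lay among the negative ones. CYTB, the electron-carrying core of complex III, had a log2 difference of 0.22 ± 0.13 (adjusted p = 0.238), and ND5, a proton-pumping subunit of complex I, one of 0.41 ± 0.16 (adjusted p = 0.0900). ND1 alone lay below 0, at −0.33 ± 0.13 (adjusted p = 0.101). Positive replicate 1 gave the highest level in 10 of the 11 genes, and without it the median difference was 0.05 with 8 of 11 above 0. After quantile normalization the median was 0.45 and 5 genes (ND4, ND4L, ND5, CYTB and ATP8) were called higher, and in the authors' values the median was 0.40 with 5 called. With normexp 7 were called, and with median centring none was (2 higher at an unadjusted p under 0.05). Of all tested genes 10.7% were called higher after quantile normalization, 11.7% in the authors' values and 12.3% with normexp. Of the 3299 brightest genes, which hold all 11, these shares were 7.64%, 8.70% and 9.88%. The files place the probes of ND3, ND4L, COX2, COX3 and ATP8 on chromosome 1 and the other 6 on the mitochondrial chromosome, and the source of the RNA bound by the first 5 was not tested. The difference between the mitochondrially encoded and the nuclear genes as sets was not tested.

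**Figure D4:**
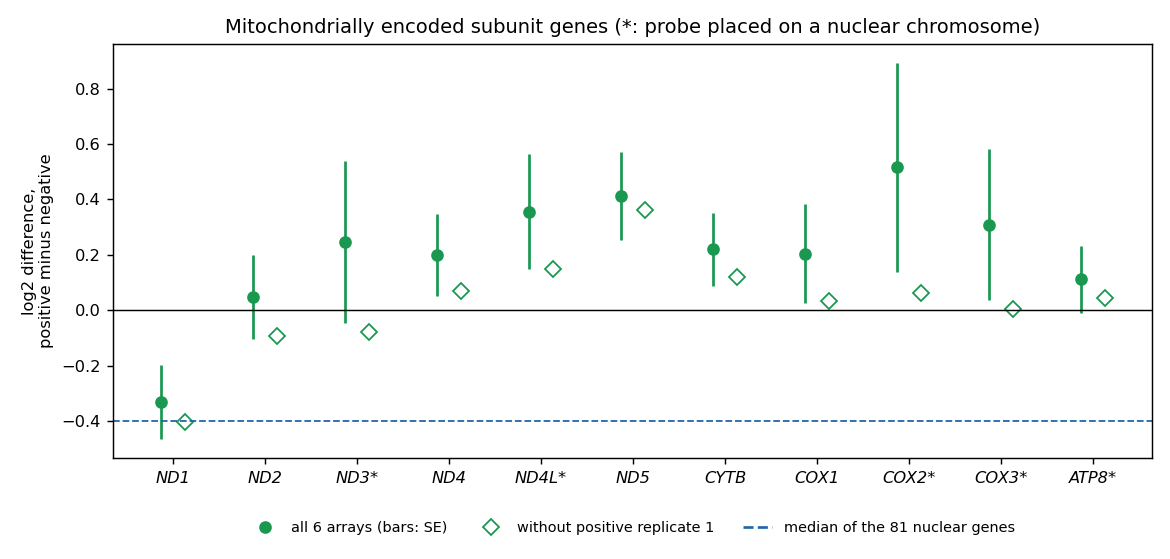
Log2 difference, Sox9-EGFP positive minus Sox9-EGFP negative cells, of the 11 measured mitochondrially encoded subunit genes with all 6 arrays (filled circles, bars SE) and without positive replicate 1 (open diamonds); an asterisk marks probes that the files place on chromosome 1. The circles lie above 0 in 10 of 11 genes, and the diamonds in 8 of 11, while the dashed line marks the median of the 81 nuclear genes at −0.40.

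Genes that work beside the respiratory chain were counted in the same fit, in which 24.4% of all tested genes were lower and 10.6% higher. Of the 3299 brightest genes 39.7% were lower and 3.15% higher. The lists share genes, namely Cyc1 between the carriers and the subunits that the name rule leaves out, Cox14, Cox16 and Cox20 between those subunits and the complex IV assembly factors, and Tmem70 between the other assembly lists. Of 20 measured genes for cytochrome c, ubiquinone synthesis, electron transfer flavoproteins, porins and adenine nucleotide and phosphate carriers, 14 were lower and none higher (0 at an unadjusted p under 0.05), with a median difference of −0.51 and of −0.21 after quantile normalization, where 3 were lower. Pdss1, which makes the side chain of ubiquinone, Cycs, the electron carrier cytochrome c, and Coq2, which joins side chain and ring, had the smallest adjusted p there. Their log2 differences were −1.08 ± 0.13, −1.20 ± 0.17 and −0.56 ± 0.10, with adjusted p of 0.00223, 0.00356 and 0.00954 in limma. Of 23 measured genes of the tricarboxylic acid cycle and pyruvate dehydrogenase, 12 were lower and 1 was higher, with a median of −0.42 and of −0.17 after quantile normalization. Idh3a, a subunit of isocitrate dehydrogenase, fell by 1.17 on the log2 scale, Fh1, fumarase, by 0.88, and Cs, citrate synthase, by 0.81 (adjusted p = 0.00249, 0.00314 and 0.00465). Pdk2, a kinase that inhibits pyruvate dehydrogenase, was the gene called higher, with a log2 difference of 1.0 (adjusted p = 0.0174). Its paralogue Pdk1 was called lower, with a log2 difference of −0.84 (limma adjusted p = 0.0120), and Pdk3 and Pdk4 were not called. Of the measured assembly factors, 6 of 17 for complex I, 4 of 13 for complexes II, III and V, and 8 of 20 for complex IV were lower and none was higher (0, 1 and 0 at an unadjusted p under 0.05). Sdhaf4, an assembly factor of complex II, had a log2 difference of 0.29 ± 0.13 (limma adjusted p = 0.134). Under all 4 other scalings Sdhaf4 was called higher. After quantile normalization its adjusted p was 0.0212, in a fit where 10.7% of all tested genes were higher. Ecsit and Ndufaf4 of complex I had log2 differences of −1.11 ± 0.15 and −1.01 ± 0.14 (adjusted p = 0.00320 and 0.00362), and Sco2, a copper chaperone of complex IV, −0.94 ± 0.13 (adjusted p = 0.00388). Of 14 measured regulators of mitochondrial biogenesis 4 were lower and none higher (0 at an unadjusted p under 0.05). Esrra, a nuclear receptor that activates respiratory genes, had log2 levels of 0.33, 0.31 and 0.38 in positive cells, against 1.31, 1.5 and 1.48 in negative cells, a difference of −1.09 ± 0.11 (adjusted p = 0.00116), and −1.0 after quantile normalization (adjusted p = 0.00193). Nrf1, Tfam and Ppargc1a did not pass (adjusted p = 0.139, 0.0651 and 0.316). Of 9 measured subunits or complex IV factors that the name rule leaves out, 3 were lower, of which Cox14 and Cyc1 are also counted above, among them Higd1a with a log2 difference of −1.38 ± 0.14 (adjusted p = 0.00127) and Cyc1, cytochrome c1 of complex III, with −0.62 ± 0.17 (adjusted p = 0.0307). These counts depended on the scaling and on single arrays. After quantile normalization 3 carriers, 5 genes of the tricarboxylic acid cycle list, 4, 1 and 4 assembly factors of the 3 lists in the order above, 1 regulator and 1 other subunit were lower. Without negative replicate 3 these counts were 5, 4, 4, 2, 3, 1 and 1, and Pdk2 was not called. Without negative replicate 1 these counts were 6, 4, 4, 1, 3, 1 and 1. The shares of all tested genes called lower were 13.3% after quantile normalization, 12% without negative replicate 3 and 12.3% without negative replicate 1. The counts in these fits are read against these shares and not against 24.4%. The lists also differ in signal. Among the 3299 brightest genes were 12 of 20 carriers, 13 of 23 genes of the tricarboxylic acid cycle list and 9 of 9 other subunits. So were 3 of 17, 3 of 13 and 6 of 20 assembly factors and 2 of 14 regulators. No list was compared with genes of matched signal.

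Promoters were searched for 3 motifs that are known from nuclear genes of the respiratory chain, on both strands of the 300 bases from 250 before to 50 after the RefSeq start (GRCm38.p6). A promoter was listed for 67 of the 82 subunit genes. The NRF1 motif GCGCANGCG was present in 20 of 67 (29.9%) and in 14.8% of the 10404 listed promoters of tested genes. The ETS motif CCGGAAG, which GABP binds, was present in 16 (23.9%) and in 19.3%, and the YY1 motif AAGATGGCG in 7 (10.4%) and in 3.49%. Matches were allowed to overlap. Among the genes called lower 9 of 28 had the NRF1 motif and 7 of 28 the ETS motif, and among the genes not called these were 11 of 35 and 9 of 35. The YY1 motif was in 2 of 28 genes called lower and in 5 of 35 not called, and these shares were not tested against each other. A match is a stretch of letters and not a shown binding site. Of the promoters below, those of Sdhd and Ndufb4 belong to genes called lower, and those of Atp5g1 and Atp5g2 to paralogues of which the first was called. The third paralogue, Atp5g3, is not printed. It was also called lower, and it holds an NRF1 match in the 50 bases after the start. The 250 bases before the start are printed 5′ to 3′ on the gene's strand, with motif matches in capitals.
Sdhd promoter, chr9:50603850-50604099, minus strand: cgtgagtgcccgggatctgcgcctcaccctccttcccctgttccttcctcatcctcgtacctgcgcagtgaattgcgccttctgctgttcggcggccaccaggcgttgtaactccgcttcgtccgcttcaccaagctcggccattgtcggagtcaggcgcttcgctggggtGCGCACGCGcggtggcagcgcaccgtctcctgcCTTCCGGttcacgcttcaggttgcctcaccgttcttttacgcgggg
Ndufb4 promoter, chr16:37654369-37654618, minus strand: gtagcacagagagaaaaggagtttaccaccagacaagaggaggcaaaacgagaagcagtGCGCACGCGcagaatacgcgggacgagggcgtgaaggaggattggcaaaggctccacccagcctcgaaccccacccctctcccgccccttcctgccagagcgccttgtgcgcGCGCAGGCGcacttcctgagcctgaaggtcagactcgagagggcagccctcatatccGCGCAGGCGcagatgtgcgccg
Atp5g1 promoter, chr11:96075632-96075881, minus strand: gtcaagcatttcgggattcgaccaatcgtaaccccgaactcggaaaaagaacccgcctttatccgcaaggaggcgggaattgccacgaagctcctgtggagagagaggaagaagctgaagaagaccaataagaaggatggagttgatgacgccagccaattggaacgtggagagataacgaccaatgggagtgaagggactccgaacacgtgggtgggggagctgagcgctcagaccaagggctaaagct
Atp5g2 promoter, chr15:102671048-102671297, minus strand: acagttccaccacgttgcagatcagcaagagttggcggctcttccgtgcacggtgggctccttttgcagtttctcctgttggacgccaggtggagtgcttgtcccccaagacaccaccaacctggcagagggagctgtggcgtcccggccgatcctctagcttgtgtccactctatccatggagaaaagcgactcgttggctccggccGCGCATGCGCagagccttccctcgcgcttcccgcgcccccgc
The Sdhd stretch holds an NRF1 match and, on the other strand, an ETS match. Ndufb4 holds 3 NRF1 matches, Atp5g2 holds 2 that overlap on opposite strands, and in the Atp5g1 stretch none of these letters was found.

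How far these values rest on the choice of probe could be followed in the 25 genes with several kept probes. When the probes were tested one by one, 27 of the 115 kept probes were called lower (13.7% of all kept probes) and 1 was called higher (7.96%). The differences of a gene's probes spanned a median of 0.08 log2 units and 0.67 at most. In 9 genes the probes differed in their call, namely Cox7a2l, Cox8a, Ndufb11, Ndufb2, Ndufb4, Sdhb, Uqcr10, Uqcr11 and Uqcrq, and in each of them all probes had the same sign. In Ndufv3, an accessory subunit of complex I, they differed in sign. Its brighter probe had a log2 difference of −0.38 ± 0.13 and its other probe, which the files place at an earlier position of the gene, one of 0.29 ± 0.12, and neither was called at the probe level, although Ndufv3 was called lower among genes (adjusted p = 0.0923 and 0.144). Some probes differed more between slides than between the sorted groups. The second Atp5c1 probe, for the gamma subunit of the central stalk, had log2 levels of 2.57, −0.24 and −0.43 in positive and 0.26, 3.05 and 0.17 in negative cells, and its high values were the 2 arrays of slide 1. The second Uqcrq probe had log2 levels of 2.80, 1.64 and 1.34 in positive and 2.34, 3.49 and 2.35 in negative cells, again high on slide 1. Within each slide both probes were lower in positive cells. Their adjusted p in limma was 0.774 and 0.287 without a block, and 0.0492 and 0.0228 with slide as a block. The other kept Cox7c probe and the only Atp5o probe were also highest on slide 1 in both groups, and neither was called with slide as a block (limma adjusted p = 0.333 and 0.115). The log2 difference of Atp5o, a stalk subunit, was −0.33 ± 0.42 (adjusted p = 0.577). These were the 4 member probes with a shift of slide 1 over 1 log2 unit, as in 7.74% of all kept probes. In 20 of the 115 probes (17.4%) the shift of slide 1 was larger than the difference between the groups, as in 40.0% of all kept probes.

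**Figure D5:**
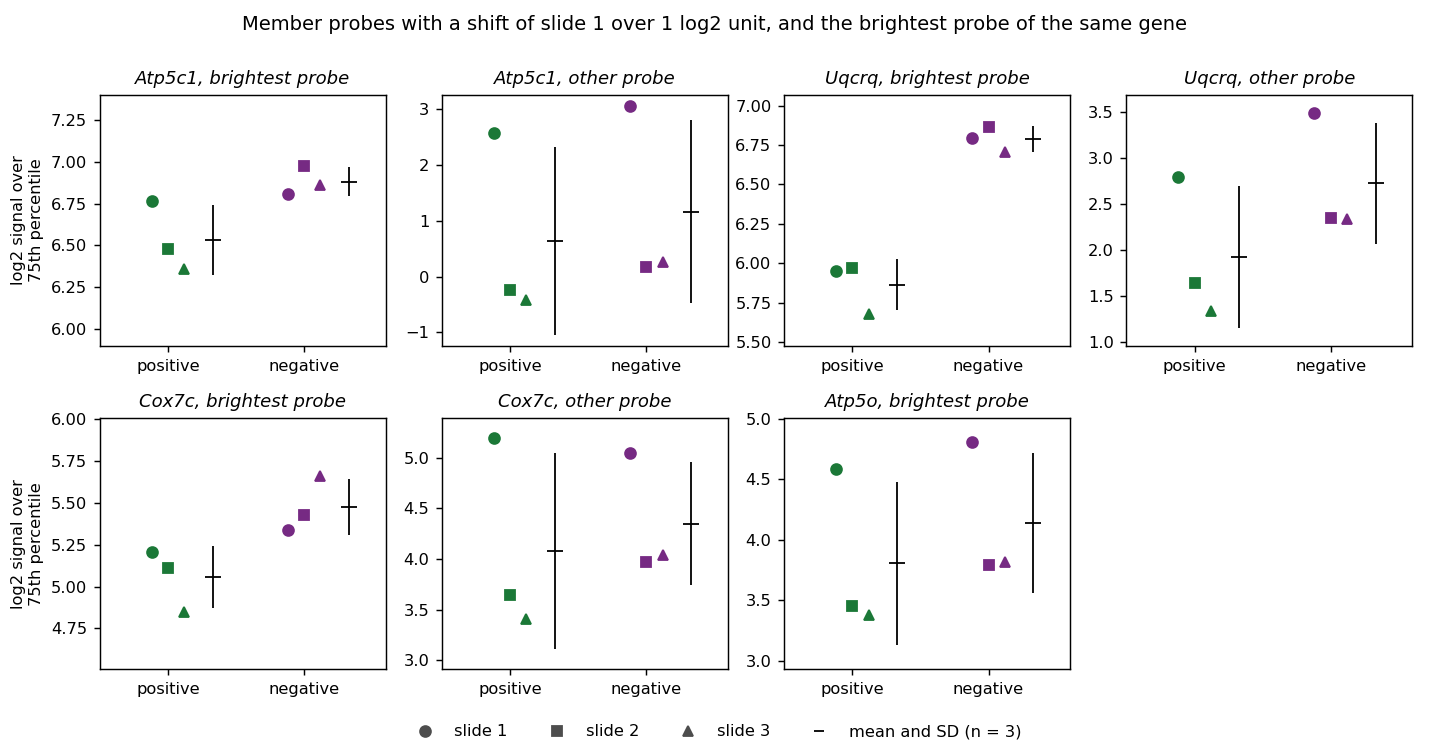
Log2 signal over the array's 75th percentile (y axis, own range per panel) on the 3 positive (green) and 3 negative arrays (purple), with the slide as the symbol and mean and SD as a bar, for the 4 member probes whose slide 1 arrays lay over 1 log2 unit from the others and for the brightest probe of the same genes. In the other probes of Atp5c1, Uqcrq and Cox7c and in the Atp5o probe the slide 1 arrays of both groups are the highest, which the brightest probes of Atp5c1, Uqcrq and Cox7c do not show in both groups.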

How the data were processed

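RNA of 6 sorted cell samples was measured on 1-colour Agilent arrays. The deposited intensity values are Agilent Feature Extraction 10.7.3.1 processed signals, background-subtracted and detrended within each array, with probe positions on mm9, per the file headers. The authors also deposited log2 values with nearly the same quantiles in every array (medians 6.44 to 6.45 over 55681 probes). Each column correlated best with its own array (r of log2 values 0.997 to 0.998), and how their background was corrected is not stated in what was read.

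Log2 processed signals had the 75th percentile of their array subtracted, and spots flagged as outliers and control spots were left out. Genes were named through RefSeq accessions or symbols, and all 85 genes matched. The groups were compared in limma 3.58.1 (R 4.3.3) with Benjamini-Hochberg adjustment over 13197 genes, a script tested on simulated data. The number of arrays limits the precision. Alternatives were other scalings, filters, probe rules, weights, blocks, a stricter threshold and leaving out each array.

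The genes and lists were chosen with earlier results of these data known. Genes given with values were the complex II subunits, up to 5 called genes per complex and direction with the smallest adjusted p, the largest and smallest difference per complex (1 gene of complex I is counted but not reported here), the paralogues, genes whose probes disagreed, and up to 3 called genes per related list and direction. Ndufs7, Ndufs8, Cox6c, Cox7c, Atp5b, Atp5c1, Atp5o, Nrf1, Tfam and Ppargc1a were added after their values were seen, and the motif letters were set after longer forms had been searched.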

Additional observations from a re-analysis of the deposited data

How the results depend on the processing

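The median log2 difference of the respiratory chain genes was below 0 under every alternative run. It moved to −0.077 with quantile normalization, −0.087 with normexp and quantile normalization, −0.25 with median centring and −0.11 in the authors' values, and the count of lower genes was 10, 9, 12 and 12 in these fits. Without a filter on background 9 of 85 genes were lower and 0 higher (7.41% and 5.09% of all genes), and at a threshold of 0.01 these were 6 and 0 (10.4% and 5.63%). With array quality weights 66 were lower (35.3% of all genes). Tested probe by probe, 1 of 115 probes was higher. Without 1 array the lower genes numbered 8 to 48 and the higher ones 0 to 2. The 2 higher genes had an unadjusted p under 0.05 in limma without the filter, with the replicate block and in all 6 fits without 1 array, and under 0.01 in the fit with all arrays. Counts within 1.5 times were 41 with probes above background on all arrays (27.1% of all genes), 27 with the mean of probes (22.6%), 46 with trend and robust moderation (27.2%), 33 with slide as a block, and 31 of 78 without the 3 genes that are not subunits, which was chosen after seeing the data. Deviations from the group means correlated across genes at r = −0.27, −0.42 and 0.16 between same-numbered samples of the 2 groups. Between arrays of the same slide r was 0.46, 0.36 and 0.23. Same-numbered samples never shared a slide, and deviations from means of 3 arrays are not independent. These values therefore cannot tell whether the numbers pair the samples. With the replicate block 4 genes were lower and 0 higher (9.86% and 6.49% of all genes). The cause of these changes was not tested. The dimmer array of positive replicate 1, with 24743 spots above background against 29800 to 35277 on the others, limits the measurement of weak genes.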

Other observations

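Some probes of these genes stand at other places in the files' mm9 annotation than their gene. Of the 120 probes, 2 for Atp5k were placed on chromosome Y and 1 for Cox5b on chromosome 15. What these probes bind was not tested.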
